A study of Homo sapiens with 12 samples.

Results

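The zinc finger genes of human chromosome 19 were described across the RNA sequencing libraries of a gingival keratinocyte line grown with and without L-Arginine (Arg). The genes were chosen by name, type and place: every protein-coding gene of chromosome 19 in the count table whose symbol was ZNF followed by a number and at most 1 letter. There were 246 such genes among the 58735 genes of the table. The 214 that had at least 10 counts in at least 3 of the 12 libraries are described here as the chromosome 19 ZNF genes, and no measured difference enters this rule. Of the 32 others, 7 had no count in any library. The threshold fell among the rarest genes: the highest count that at least 3 libraries reached was 10 in ZNF491, which was kept, and 9 in ZNF20 and ZNF221 and 8 in ZNF223 and ZNF564, which were left out. Of the 214 genes, 199 had 10 counts in all 12 libraries, and 0 reached 10 counts in 1 group only.

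TIGK cells, human gingival keratinocytes immortalized with the telomerase gene (hTERT), were used, and all libraries come from this 1 line. Every group was kept at 48 mM glucose, a high-glucose condition, in a base medium without Arg. The controls received no Arg and the treated cells 500 µM Arg, for 24 or 48 h, with 3 libraries (A, B and C) per group. The labels do not say whether the 3 libraries came from separate cultures, so the p-values measure the spread between these libraries, which may be technical. In bulk RNA, fewer cells of a kind and less RNA per cell cannot be told apart.

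The ZNF genes of chromosome 19 encode proteins with rows of C2H2 zinc fingers, small folds in which a pair of cysteines and a pair of histidines hold a zinc ion and in which a few residues read the bases of DNA. Many carry a KRAB domain near their start, which recruits the corepressor TRIM28 and, through it, the histone methyltransferase SETDB1, and many of the known targets of such proteins are transposable elements. Chromosome 19 is known for its tandem clusters of these genes, which arose by repeated duplication.

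The repeat that most of the members share can be read in their coding sequence. The linker between neighbouring fingers was searched in frame, on the coding strand, in each gene's canonical GENCODE transcript (GRCh38), as the codons for threonine, glycine, glutamate, lysine and proline. The 214 genes had a median of 6 such linkers, with a range of 0 to 24, and 31 had none. Linkers with other residues were not counted. The following stretches come from 4 genes that rose with Arg at 24 h and are shown as examples of this repeat. Each runs, 5′ to 3′ along the gene, from the start of 1 linker to the end of the next. Both linkers are in capitals.
ZNF329 (chr19:58128730-58128828, minus strand): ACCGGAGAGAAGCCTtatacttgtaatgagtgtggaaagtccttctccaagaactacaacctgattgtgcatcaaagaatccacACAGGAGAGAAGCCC
ZNF468 (chr19:52841400-52841498, minus strand): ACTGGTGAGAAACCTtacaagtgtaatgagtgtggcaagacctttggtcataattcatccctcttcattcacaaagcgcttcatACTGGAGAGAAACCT
ZNF677 (chr19:53237689-53237787, minus strand): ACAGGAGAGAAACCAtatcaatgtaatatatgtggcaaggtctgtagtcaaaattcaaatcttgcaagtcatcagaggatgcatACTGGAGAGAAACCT
ZNF431 (chr19:21183066-21183164, plus strand): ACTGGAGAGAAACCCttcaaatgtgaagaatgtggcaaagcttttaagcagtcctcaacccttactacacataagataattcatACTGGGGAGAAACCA
Each stretch is 99 bases long and the step from linker to linker is 28 codons. Both were set by the search, which took the first pair of linkers at this step in each gene. The search also fixed most bases of the linkers. Among the 9 genes that rose at 24 h and had such a stretch, 40 of the 99 positions held the same base in every gene. Any 2 stretches were identical at 60.6% to 87.9% of positions. Part of this identity was therefore given in advance by the search. All 9 held the 2 cysteine and the 2 histidine codons of the finger at the same positions. The stretch of ZNF738, 1 of the 9, lies at chr19:21383561-21383659, outside the interval of that gene in the count table.

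Such repeats can share reads. Cut into stretches of 150 bases, the read length, 156 of the 214 canonical transcripts had no stretch in common with another gene, 37 shared over 5% of their stretches, and 2 shared over 50%. By the deposited coordinates, introns included, 153 genes overlapped another gene, and 32 overlapped one with more counts. Whether their exons overlap was not tested. Whether the counting used strand and how it treated reads with several matches was not stated, so counts of overlapping genes are uncertain, antisense partners included.

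The promoters were compared as well, because most of the genes were higher with Arg. Of the 214 genes, 194 matched a RefSeq promoter (GRCh38.p14, 250 bases before to 50 after the start). The letters CCGGAAG, the core that ETS factors bind, stood on either strand in 46.9% of them, against 10.3% of all 35116 promoters of the same length, 12.8% of those of protein-coding genes and 28.5% of the 288 promoters of ZNF genes on other chromosomes. The TATA letters TATAAA stood in 2.06%, against 11.5% of all promoters, 9.47% of protein-coding and 5.56% of other ZNF promoters. For the GC box letters GGGCGG these shares were 67.5%, 45%, 56.3% and 56.2%, in the same order. The YY1 letters AAGATGGC gave 7.22%, 2.89%, 3.53% and 2.78%, and the AhR letters TNGCGTG 12.4%, 5.51%, 6.28% and 7.99%. The NRF1 motif stood in 12.4%, 5.78%, 7.39% and 12.5%. These matches are a description of the letters, all read on both strands, and matches of different motifs may overlap. The promoters of the 3 genes that rose at 24 h and hold the ETS letters are shown 5′ to 3′ on the gene's strand, with those letters in capitals on whichever strand they read.
ZNF677 (chr19:53254774-53255073, minus strand): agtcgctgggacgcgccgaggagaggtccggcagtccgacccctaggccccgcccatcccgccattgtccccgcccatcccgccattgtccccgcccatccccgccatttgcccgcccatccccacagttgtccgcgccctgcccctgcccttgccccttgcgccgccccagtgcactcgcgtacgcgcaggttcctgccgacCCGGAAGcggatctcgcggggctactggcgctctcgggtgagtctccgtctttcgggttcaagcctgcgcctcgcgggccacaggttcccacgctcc
ZNF431 (chr19:21141790-21142089, plus strand): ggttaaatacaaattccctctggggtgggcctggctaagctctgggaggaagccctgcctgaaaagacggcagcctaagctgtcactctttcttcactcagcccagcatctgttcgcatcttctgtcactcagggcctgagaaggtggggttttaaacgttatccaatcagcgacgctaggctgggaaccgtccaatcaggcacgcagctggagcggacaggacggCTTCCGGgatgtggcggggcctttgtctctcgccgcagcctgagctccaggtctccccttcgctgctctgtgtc
ZNF528 (chr19:52397599-52397898, plus strand): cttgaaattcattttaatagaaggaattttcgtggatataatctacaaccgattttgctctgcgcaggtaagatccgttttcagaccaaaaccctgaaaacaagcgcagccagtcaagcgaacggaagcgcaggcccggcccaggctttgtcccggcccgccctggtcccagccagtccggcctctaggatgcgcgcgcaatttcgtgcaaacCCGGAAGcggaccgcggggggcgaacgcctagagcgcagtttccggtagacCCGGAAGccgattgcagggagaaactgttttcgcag
ZNF528 holds the letters 2 times, and in ZNF431 they read on the opposite strand. Of the 10 genes that rose at 24 h, 8 had a promoter in the table, and 3 of the 8 held the ETS letters. The 91 genes with these letters and the 103 without had median log2 fold changes with Arg of 0.24 and 0.21 at 24 h, over the 89 and 101 tested. At 48 h the medians were 0.17 and 0.14, and 0.29 and 0.19 without control library B. These differences were not tested.

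The libraries held 16542243 to 19040964 counts, of which 36191 to 47042 fell on the chromosome 19 ZNF genes. All 15 keratinocyte markers had 10 counts or more in every library, with a sum of 46412 to 58703 CPM, counts scaled to the size of the library, while the 5 leukocyte markers summed to at most 0.449 CPM, with 2 at 0 throughout. Sums of 16.2 to 30.6 CPM were found for the 5 melanocyte markers, 32.9 to 104 CPM for the 8 fibroblast markers and 0.756 to 6.41 CPM for the 4 endothelial markers. The highest fibroblast sums were 57.6 CPM in the 24 h controls and 44.6 CPM with Arg, then 104 and 101 CPM at 48 h, and their part in the results was not tested. Library B of the 48 h control stood apart from its group: compared gene by gene, it differed from A and C by 20.9 and 23.9 in chi-square per degree of freedom, against 3.66 between A and C. Other libraries stood apart less. Control B at 24 h differed from A and C by 12.3 and 12.5, against 6.54 between those. Arg library A at 24 h differed from B and C by 12.4 and 10.9, against 5.41 between those. Results that rest on control library B at 48 h are given with and without it, a choice made from these same counts.

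Measured per kilobase of exonic length, the genes were mostly low. Their mean levels over the 12 libraries ran from 0.077 to 32.3 CPM per kb with a median of 1.36, which lies at the 27.8th percentile of the genes tested at 24 h. ZNF146, made almost wholly of fingers without a KRAB domain, had the highest level, 32.3 ± 2.45 CPM per kb (SD, n = 12 libraries). It was followed by ZNF787 (21.4 ± 3.56), ZNF317 (14.6 ± 1.00) and ZNF581 (13.2 ± 0.755), then by ZNF414 (7.66 ± 0.981), ZNF561 (7.47 ± 0.698), ZNF266 (6.05 ± 0.790) and ZNF791 (5.42 ± 0.888), all in CPM per kb. In this order ZNF414 and ZNF561, and ZNF266 and ZNF791, lay within their spread of each other. The lowest were ZNF546 (0.077 ± 0.0293 CPM per kb), ZNF578 (0.0778 ± 0.0401) and ZNF320 (0.0848 ± 0.0302), which did not differ beyond their spread. The group means of ZNF146 ran from 127 ± 1.12 CPM (SD, n = 3) with Arg at 48 h to 142 ± 10.7 CPM with Arg at 24 h.

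The first comparison asked which of these genes changed when cells in high glucose received Arg for 24 h. Of the 210 genes with enough counts to be tested, 10 rose and 0 fell at an adjusted p under 0.05 (edgeR's quasi-likelihood test, adjusted over all genes tested). This was 4.76% of the genes, against 2.79% of all 14279 genes tested that rose and 3.84% that fell. At an unadjusted p under 0.05 50 were higher, or 23.8% against 10.8% of all genes, and 2 were lower, against 11.9% of all genes. DESeq2 called 9 genes higher, 8 of them among the 10, and 0 lower. The shift was broad rather than large: 175 of the 210 genes had a log2 fold change above 0, or 83.3% against 50.5% of all genes. The median log2 fold change was 0.23, with quartiles of 0.07 and 0.38, while over all genes it was 0.003 with quartiles of -0.16 and 0.18. In 70 genes (33.3%, against 12.9% of all genes) the 3 Arg libraries all lay above the 3 controls, and in 2 they all lay below (0.952%, against 13.4%).

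The same measures of a rise were smaller in the protein-coding sets most like these genes. The ZNF rows of chromosome 19 that were not protein-coding are described apart, under other observations. Among 228 tested ZNF genes of other chromosomes, 7 rose and 0 fell, 65.4% lay above 0, and the median log2 fold change was 0.11. Among 699 other protein-coding genes of chromosome 19, 19 rose and 30 fell, 48.8% lay above 0, and the median was -0.01. These differences between sets of genes are descriptions and were not tested.

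Summed over the 214 genes, the level was 2024, 2095 and 2095 CPM in the 24 h controls and 2393, 2376 and 2337 CPM with Arg at 24 h, so the groups did not overlap and the ratio of their means was 1.14. At 48 h the controls held 2063, 2438 and 2140 CPM and the Arg libraries 2402, 2478 and 2440 CPM. Control library B lay among the Arg libraries, and the 48 h ratio was 1.10 with it and 1.16 without it. For the ZNF genes of other chromosomes the ratios were 1.04 at both times (1.06 at 48 h without B), and for the other genes of chromosome 19 they were 0.986 at both times (0.971 without B). The share of mitochondrially encoded counts, which can move with RNA quality, also differed between the groups. It was 1.20% to 1.30% in the 24 h controls and 0.624% to 0.802% with Arg, then 0.906%, 1.55% and 0.707% in the 48 h controls A, B and C and 1.14% to 1.31% with Arg. It was thus lower with Arg at 24 h, while at 48 h the Arg libraries lay above controls A and C and below B. With the mitochondrially encoded genes left out before scaling, the median log2 fold changes were 0.23 at 24 h and 0.16 at 48 h, and any other part of this share in the results was not tested.

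**Figure D1:**
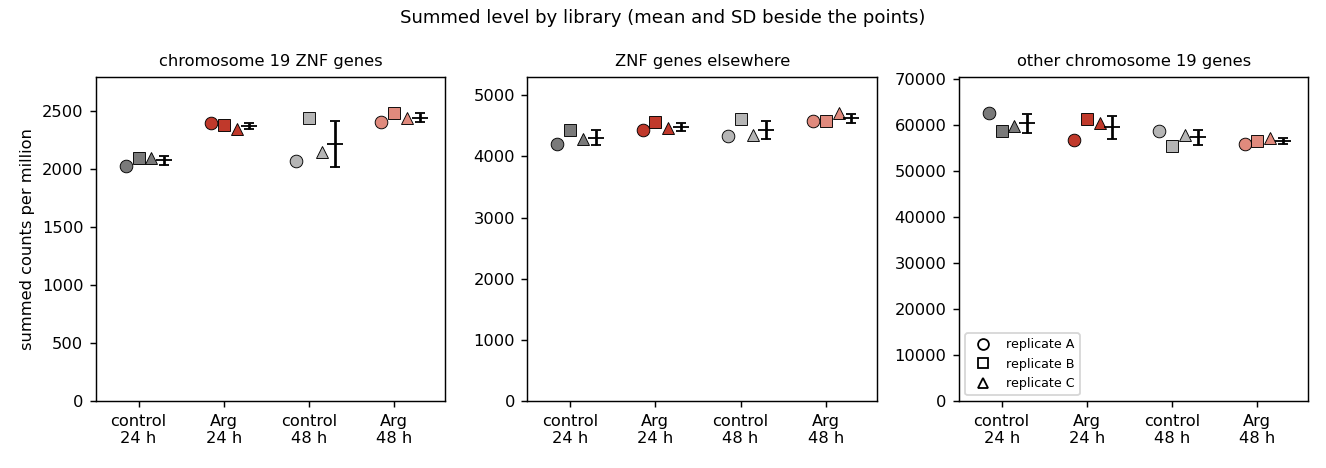
Summed level in CPM (y axis, from 0) of the 214 chromosome 19 ZNF genes, of 235 ZNF genes on other chromosomes and of 751 other protein-coding genes of chromosome 19, in each of the 12 libraries (x axis, 4 groups; marker shape gives the replicate letter; bars are mean and SD, n = 3). In the left panel the Arg libraries at 24 h (2337 to 2393 CPM) lie above the controls (2024 to 2095 CPM), and at 48 h control library B (2438 CPM) lies among the Arg libraries.

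**Figure D2:**
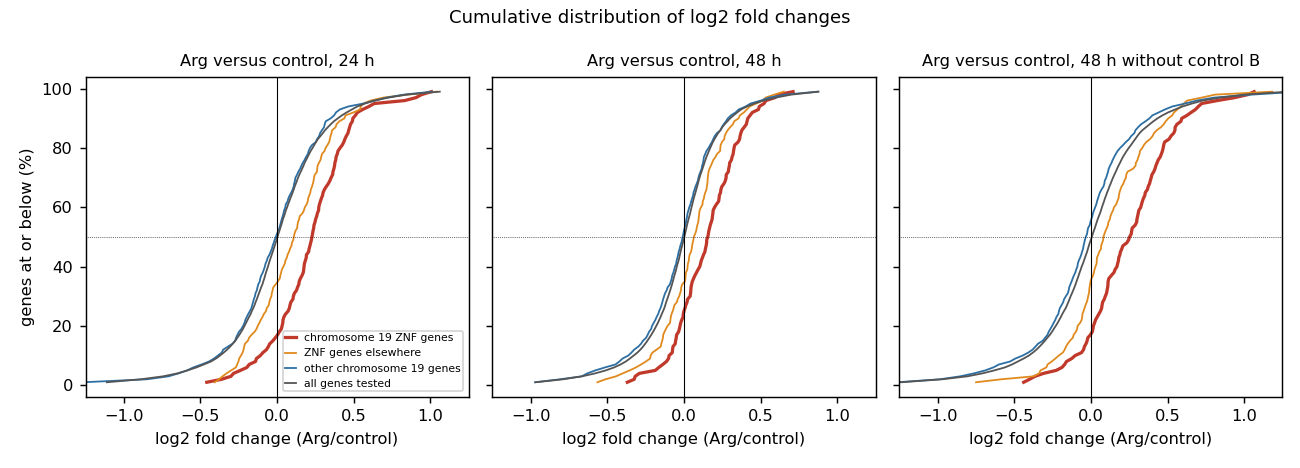
Cumulative distribution of log2 fold changes with Arg (x axis) as the percent of genes at or below each value (y axis) for 4 sets of genes at 24 h, at 48 h, and at 48 h without control library B. The curve of the chromosome 19 ZNF genes lies to the right of the others at its median, with medians of 0.23, 0.16 and 0.25.

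ZNF738 had the smallest p at 24 h. Its level was 4.98, 4.23 and 5.67 CPM in the controls and 9.82, 10.5 and 8.43 CPM with Arg (log2 fold change 0.95 ± 0.19 SE, edgeR adjusted p = 0.0052). The Arg libraries lay clear of the controls. In its canonical transcript, which runs beyond the interval that was counted, 21.8% of the 150-base stretches also occur in another gene. It is the only 1 of the 10 that passed the test under all 19 alternatives of processing and left-out libraries. The counted interval is chr19:21358930-21379302 (GRCh38), plus strand.

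ZNF329 (chr19:58126252-58155110, minus strand) measured 6.82, 8.29 and 9.38 CPM without Arg and 11.9, 14.6 and 17.9 CPM with it (log2 fold change 0.86 ± 0.17 SE, edgeR adjusted p = 0.0065). ZNF780B (chr19:40028260-40056209, minus strand), at lower counts, measured 3.63, 4.18 and 2.49 CPM and 5.56, 5.99 and 6.28 CPM (log2 fold change 0.79 ± 0.23 SE, edgeR adjusted p = 0.0465). For both the lowest Arg library lay above the highest control.

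A group of 4 of the 10 lay in 1 cluster of the long arm, chr19:51571298-53580269. ZNF468 (chr19:52838008-52890375, minus strand) measured 22.4, 27.1 and 26.8 CPM in the controls and 34.8, 37.5 and 32.8 CPM with Arg (log2 fold change 0.46 ± 0.11 SE, edgeR adjusted p = 0.0155). By the deposited coordinates it overlaps ZNF28 on the same strand, and reads of any shared exon may not be assignable to 1 of them. ZNF677 (chr19:53235381-53254898, minus strand) measured 16.5, 17.2 and 16.5 CPM and 22.8, 22.9 and 24.2 CPM (log2 fold change 0.48 ± 0.11 SE, edgeR adjusted p = 0.0168). Its 3 controls lay within 1 CPM of each other. ZNF480 (chr19:52297177-52325922, plus strand) measured 21.6, 19.7 and 22.3 CPM and 26.9, 29.4 and 26.9 CPM (log2 fold change 0.38 ± 0.11 SE, edgeR adjusted p = 0.0417). ZNF528 (chr19:52397849-52418412, plus strand) measured 5.90, 5.53 and 6.60 CPM and 9.43, 9.60 and 8.32 CPM (log2 fold change 0.60 ± 0.17 SE, edgeR adjusted p = 0.0465). In all 4 genes every Arg library lay above every control. ZNF528 has neither an overlapping gene nor a shared stretch.

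ZNF431 (chr19:21142024-21196053, plus strand), which like ZNF738 lies in the cluster at chr19:19668796-24129961, measured 19.8, 24.7 and 25.6 CPM without and 30.1, 36.0 and 29.5 CPM with Arg (log2 fold change 0.45 ± 0.12 SE, edgeR adjusted p = 0.0342). ZNF791 (chr19:12610918-12633840, plus strand), among the most highly expressed of the family, measured 27.4, 31.0 and 29.9 CPM and 37.2, 38.9 and 39.7 CPM (log2 fold change 0.39 ± 0.097 SE, edgeR adjusted p = 0.0225). Both had all Arg libraries above all controls, and on the opposite strand ZNF431 overlaps RPL7AP10 and ZNF791 overlaps ZNF490. ZNF304 (chr19:57351307-57359898, plus strand), a KRAB protein known to recruit a corepressor complex to tumour suppressor genes, measured 12.7, 15.6 and 12.7 CPM and 21.2, 15.7 and 21.5 CPM (log2 fold change 0.51 ± 0.15 SE, edgeR adjusted p = 0.0455). Arg library B of this gene was close to the highest control.

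The number of calls changed with the libraries used. Without control A or without Arg C 2 genes were called at 24 h, without Arg B 3, without control C 4, without Arg A 7 and without control B 13, while the median log2 fold change stayed between 0.21 and 0.25.

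**Figure D3:**
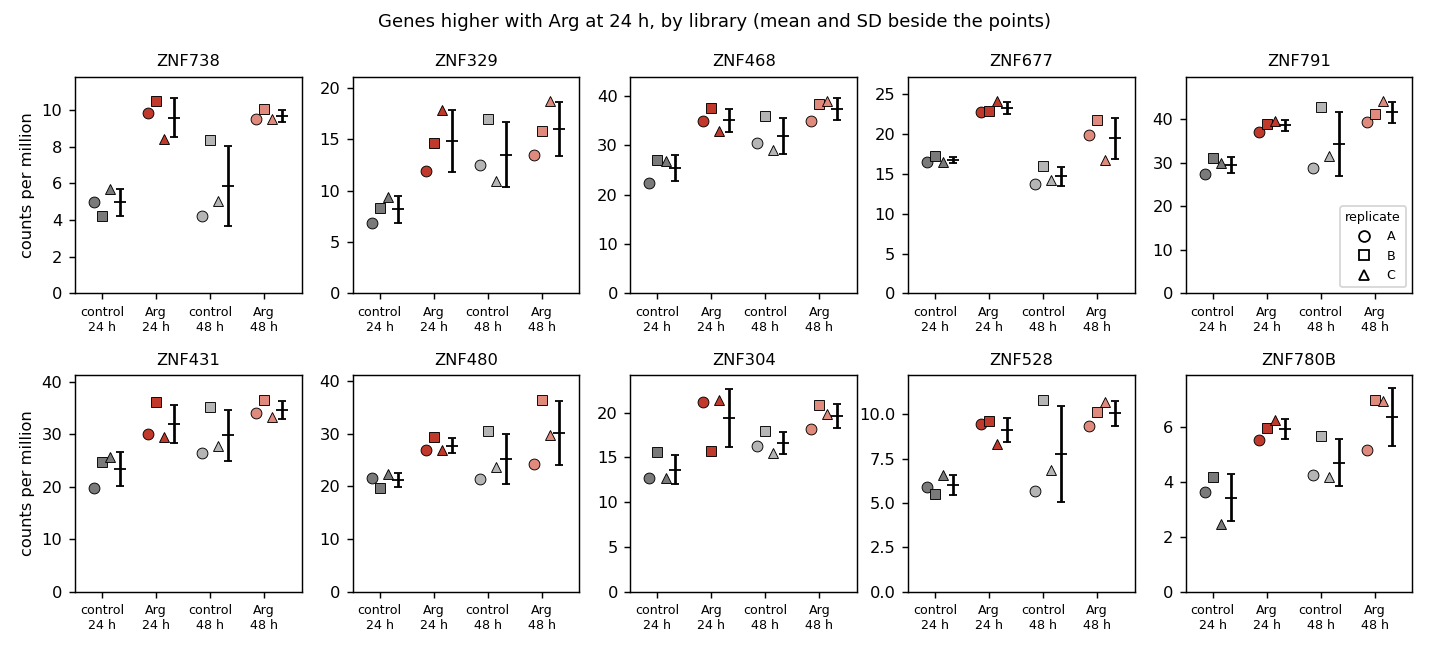
Level in CPM (y axis, from 0) of the 10 chromosome 19 ZNF genes that rose with Arg at 24 h in each of the 12 libraries (x axis, 4 groups; marker shape gives the replicate letter; bars are mean and SD, n = 3). ZNF738 measured 4.23 to 5.67 CPM in the 24 h controls and 8.43 to 10.5 CPM with Arg, and in all 10 panels the square of control library B at 48 h lies above the other controls of that time.

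No gene of the family fell at 24 h by the adjusted test. The smallest p among those below 0 belonged to ZNF865, at 19.5, 21.4 and 17.8 CPM in the controls and 13.8, 18.2 and 14.3 CPM with Arg (log2 fold change -0.35 ± 0.14 SE, edgeR unadjusted p = 0.021, adjusted p = 0.138), and to ZNF358, at 8.17, 6.77 and 5.50 CPM and 4.60, 4.65 and 5.58 CPM (log2 fold change -0.46 ± 0.20 SE, edgeR unadjusted p = 0.0368, adjusted p = 0.186). In each the groups overlapped. The next 6, ZNF787, ZNF584, ZNF823, ZNF671, ZNF784 and ZNF461, had log2 fold changes from -0.63 to -0.18 and adjusted p from 0.251 to 0.453. Among these, ZNF865, ZNF358 and ZNF787 have GC contents of 70.9%, 69.2% and 70.4%, against a median of 42.3% for the 214. These were picked for their GC content, and that of the other genes below 0 is not given here. The values therefore do not describe the genes below 0 as a set.

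At 48 h the same comparison called 0 of 211 genes in either direction (edgeR, adjusted p), against 0% of all 14562 genes tested that were higher and 0.117% that were lower. DESeq2 called 0 as well. At an unadjusted p under 0.05, 26 genes were higher, or 12.3% against 5.94% of all genes, and 3 were lower, against 7.49%. Of the 211, 158 lay above 0, or 74.9% against 50.3%, and the median log2 fold change was 0.16, against 0.002 over all genes. The Arg libraries lay above the controls without overlap in 35 genes (16.6%, against 8.56% of all genes) and below them in 6 (2.84%, against 8.51%).

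Without control library B, the 48 h comparison had 2 controls and 3 Arg libraries, and 38 of 212 genes rose (17.9%, against 7.76% of all 14854 genes) while 1 fell (0.472%, against 8.17%). The median was then 0.25 and 175 of the 212 genes lay above 0, or 82.5% against 50.9% of all genes. Control B held the highest summed level of the 48 h controls (2438 CPM), so leaving it out lowers the control level by construction. Among the ZNF genes of other chromosomes 22 of 234 rose and 3 fell without B, with a median of 0.08. Among the other genes of chromosome 19, 52 of 735 rose and 85 fell, with a median of -0.03. Leaving out any other library of the 48 h groups gave 0 calls and medians from 0.10 to 0.15.

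The 24 and 48 h comparisons share no library, so the genes called at 24 h could be measured again at 48 h. All 10 had higher mean levels with Arg at 48 h (median log2 fold change 0.26), and 3 of them had an unadjusted p under 0.05. Of the 398 genes of the whole table that rose at 24 h, 395 were tested at 48 h and 357 of these lay above 0, or 90.4%. Of the 395, 119 were higher at an unadjusted p under 0.05. Without control B, all 10 had an unadjusted p under 0.05 and 8 an adjusted one, with a median of 0.45. Control B was the highest 48 h control in all 10, so leaving it out raises their fold changes by construction. The values without B are therefore no separate measure of the 24 h calls. Over the whole table these counts were 237 and 167 of 396. Of the 50 genes with an unadjusted p under 0.05 at 24 h, 46 lay above 0 at 48 h (50 without B), against 1275 of 1530 in the whole table (1284 of 1535 without B).

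**Figure D4:**
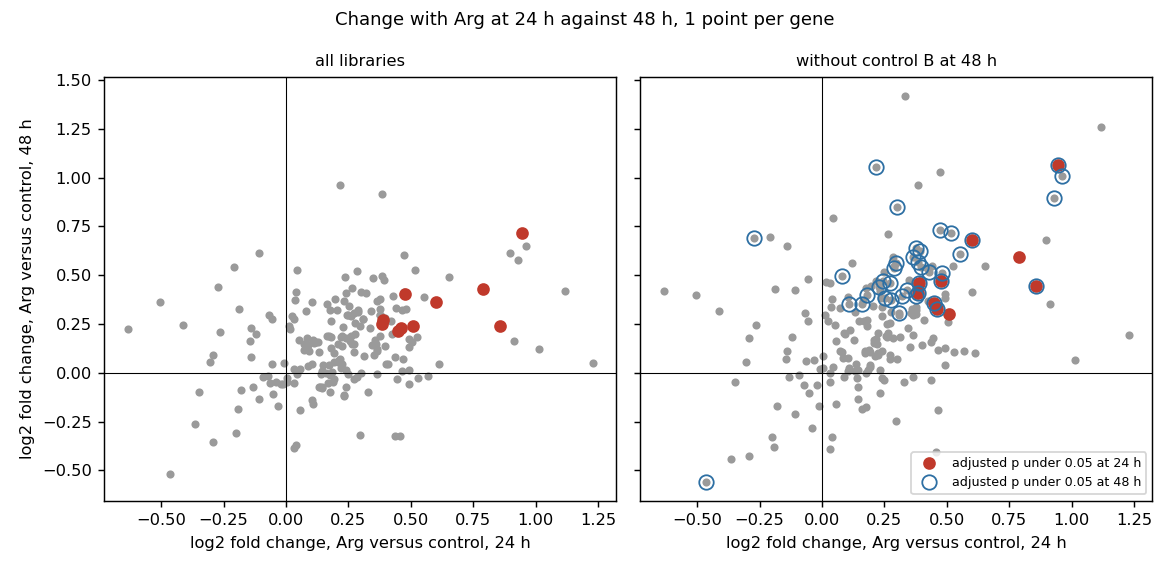
Log2 fold change with Arg at 24 h (x axis) against that at 48 h (y axis), 1 point per chromosome 19 ZNF gene, with all libraries (left) and without control library B at 48 h (right). Red points mark the 10 genes that rose at 24 h, all above 0 on both axes, and open circles mark the 39 genes with an adjusted p under 0.05 at 48 h, present in the right panel only.

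ZNF738 measured 4.19, 8.34 and 5.04 CPM in the 48 h controls and 9.48, 10.1 and 9.49 CPM with Arg (log2 fold change 0.72 ± 0.23 SE, edgeR adjusted p = 0.221; without B 1.07 ± 0.18, adjusted p = 2.80e-04). ZNF677 measured 13.8, 16.1 and 14.3 CPM and 19.9, 21.8 and 16.7 CPM (log2 fold change 0.40 ± 0.13 SE, edgeR adjusted p = 0.228; without B 0.47, adjusted p = 0.0137). In both the 3 Arg libraries lay above the 3 controls, B included, and B was the highest control.

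The smallest p at 48 h was that of ZNF506, a gene of low counts at 1.73, 2.38 and 2.25 CPM in the controls and 4.64, 3.75 and 4.03 CPM with Arg (log2 fold change 0.96 ± 0.25 SE, edgeR unadjusted p = 0.0026, adjusted p = 0.17). Without control library B its log2 fold change was 1.06 and it passed the adjusted test. At 24 h it measured 1.41, 2.20 and 2.72 CPM and 2.02, 2.85 and 2.47 CPM, with overlapping groups. ZNF473, a protein known to take part in the processing of histone mRNA ends, measured 26.3, 29.1 and 28.4 CPM and 34.7, 31.6 and 35.1 CPM (log2 fold change 0.27 ± 0.093 SE, edgeR unadjusted p = 0.0119, adjusted p = 0.24). Without B it also passed the test (log2 fold change 0.31, edgeR adjusted p = 0.0292). Its 24 h values were 33.3, 33.7 and 34.5 CPM and 41.8, 41.9 and 42.0 CPM (log2 fold change 0.31 ± 0.091 SE, edgeR adjusted p = 0.0509), so the groups were apart at both times. It overlaps VRK3 on the opposite strand.

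ZNF100, ZNF90, ZNF525 and ZNF880 completed the 8 genes with the smallest p above 0 at 48 h. They differed by 0.41, 0.49, 0.34 and 0.48 on the log2 scale, and their adjusted p (edgeR) ran from 0.228 to 0.26. Without B the first 3 of these passed the adjusted test and ZNF880 did not. ZNF100 and ZNF90 lie with ZNF506 and ZNF738 in the cluster at chr19:19668796-24129961, and so does ZNF91, known for repressing SVA retrotransposons, which passed the test at 48 h without B (log2 fold change 0.56 ± 0.15 SE, edgeR adjusted p = 0.0112) and not with it (log2 fold change 0.24 ± 0.21 SE, edgeR adjusted p = 0.649). Its level at 48 h was 8.86, 15.7 and 9.11 CPM in the controls and 11.9, 13.1 and 14.8 CPM with Arg. ZNF93, known for repressing L1 elements, likewise passed without B (log2 fold change 0.51 ± 0.16 SE, edgeR adjusted p = 0.0371) and not with it (log2 fold change 0.33 ± 0.17 SE, edgeR adjusted p = 0.437), at 6.87, 9.79 and 7.12 CPM and 9.17, 10.3 and 10.5 CPM. ZNF91 and ZNF93 were singled out after their values were seen.

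Below 0 at 48 h, ZNF358 measured 7.97, 8.19 and 9.80 CPM in the controls and 5.78, 6.01 and 6.33 CPM with Arg (log2 fold change -0.52 ± 0.17 SE, edgeR unadjusted p = 0.0084, adjusted p = 0.221). It was the 1 gene that fell without B (-0.56 ± 0.18, adjusted p = 0.0353). ZNF358 shares 15% of its 150-base stretches with another gene. ZNF584 measured 17.5, 16.1 and 16.1 CPM and 14.1, 13.3 and 12.8 CPM (unadjusted p = 0.0221, adjusted p = 0.291, edgeR). ZNF784 measured 11.7, 9.69 and 11.1 CPM and 8.86, 9.22 and 7.36 CPM (unadjusted p = 0.04, adjusted p = 0.344, edgeR). In all 3 the Arg libraries lay below the controls. None of the 3 holds a linker of the searched form. ZNF724, ZNF557, ZNF569, ZNF443 and ZNF444 followed with log2 fold changes from -0.39 to -0.14 and adjusted p of 0.555 or more.

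Along chromosome 19, genes separated by no gap over 1 Mb were taken as 1 cluster, which gave 16 clusters over the 246 genes, 14 of them with described genes. The cluster at chr19:19668796-24129961, from ZNF101 to ZNF254, had 27 of the 214 genes, and all 27 lay above 0 at 24 h (median log2 fold change 0.38), 2 of them called. At 48 h 25 of the 27 lay above 0, with a median of 0.28, and without B 12 rose, with a median of 0.51, where 7.76% of all genes rose. In the cluster at chr19:51571298-53580269, from ZNF175 to ZNF331, 33 of 37 tested genes lay above 0 at 24 h and 35 of 38 at 48 h, with medians of 0.29 and 0.19, and 11 rose at 48 h without B. The largest cluster, chr19:55476332-58481230, from ZNF628 to ZNF446, had 44 of 55 genes above 0 at 24 h and 37 at 48 h, with medians of 0.16 and 0.13, and 6 rose at 48 h without B. The cluster at chr19:43525497-45076588, from ZNF575 to ZNF296, had 11 of 18 above 0 at both times, with medians of 0.13 and 0.07, and 2 rose without B. The other clusters with 14 or more genes, at chr19:7069444-9793180, chr19:11483427-12640098 and chr19:36182060-37817300, had medians of 0.21, 0.15 and 0.20 at 24 h. Without B at 48 h, 3 of 14 rose and 1 fell in the first of these, 2 of 19 rose in the second and 1 of 24 in the last. Over all genes, 50.5% lay above 0 at 24 h and 50.3% at 48 h. By the adjusted test 2.79% of all genes rose at 24 h, and 7.76% rose and 8.17% fell at 48 h without B. Neighbouring genes share sequence and place, and no difference between clusters was tested.

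**Figure D5:**
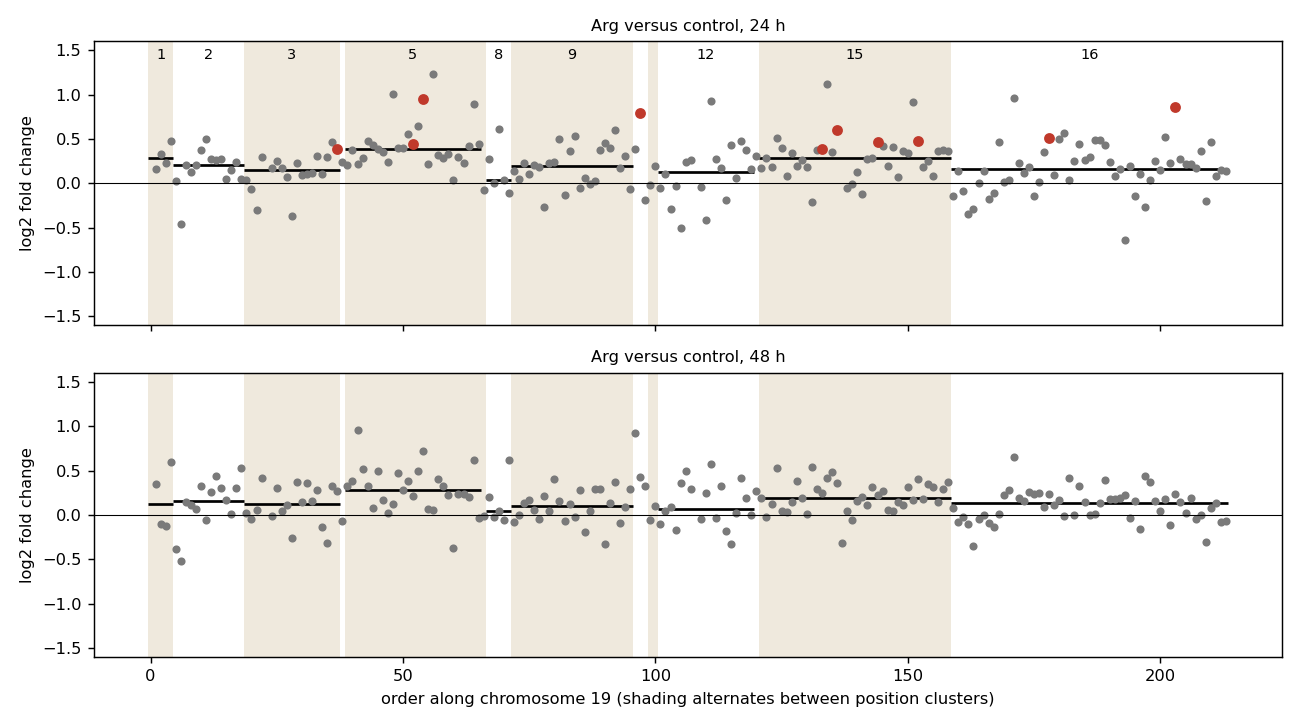
Log2 fold change with Arg (y axis) of the chromosome 19 ZNF genes at 24 h (top) and 48 h (bottom), in their order along the chromosome (x axis); shading alternates between position clusters, numbers name those with 5 or more genes, horizontal bars are their medians, and red points have an adjusted p under 0.05. In cluster 5 all 27 genes lie above 0 at 24 h, with a median of 0.38.

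The genes are poor in G and C, with a median of 42.3% over their canonical transcripts against 49% for 12833 other protein-coding genes, and the change with Arg varied with this content among them. The 71 genes lowest in GC (up to 40.4%) had a median log2 fold change of 0.30 at 24 h, the 71 in the middle 0.24 and the 72 highest (from 44%) 0.15. At 48 h the medians were 0.23, 0.16 and 0.08, and 0.35, 0.26 and 0.11 without control B. Across the genes Spearman's rho between log2 fold change and GC content was -0.29 at 24 h (n = 210 genes) and -0.30 at 48 h (n = 211), over genes that share libraries and are not independent. When the trend of each library with GC content over all genes was removed, an alternative chosen after the data were seen, 16 genes were called at 24 h and the median was 0.24.

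Genes were also grouped by number of linkers of the searched form. The 31 genes without any had a median log2 fold change of 0.13 at 24 h and 0.02 at 48 h. The 96 genes with 1 to 6 had 0.22 and 0.16, and the 87 with 7 or more had 0.30 and 0.19. Without control B the 48 h medians were 0.04, 0.27 and 0.33 in the same order. Of the 10 genes that rose at 24 h, 8 had 7 linkers or more. By level per kilobase, the lowest 71, middle 71 and highest 72 genes had medians of 0.23, 0.26 and 0.19 at 24 h. The 55 genes with no shared stretch and no overlapping gene had a median of 0.27 at 24 h, with 48 of 54 above 0, and 0.19 at 48 h, with 46 of 54 above 0. Genes that share over 5% of their stretches had medians of 0.16 and 0.04. Without B, the 48 h medians were 0.29 and 0.11 for these 2 groups. The 116 genes on the plus strand and the 98 on the minus strand had medians of 0.23 each at 24 h.

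Corepressors of KRAB proteins and more general chromatin factors were listed apart, 30 genes in all, called corepressors here for short. ZNF274, 1 of the 30, is itself a chromosome 19 ZNF gene. At 24 h 0 of the 30 changed by edgeR's adjusted test, 2 were higher at an unadjusted p under 0.05 and 19 lay above 0 (median log2 fold change 0.05). Of all genes, 2.79% rose and 3.84% fell by the adjusted test, 10.8% were higher at the unadjusted p and 50.5% lay above 0. At 48 h 0 changed by edgeR, 3 were higher at an unadjusted p under 0.05 and 18 lay above 0, with a median of 0.01. Over all genes at 48 h, 0% rose and 0.117% fell, 5.94% were higher at the unadjusted p and 50.3% lay above 0. TRIM28, which binds the KRAB domain, measured 895, 852 and 825 CPM in the 24 h controls and 890.1, 962 and 949.7 CPM with Arg (log2 fold change 0.12 ± 0.073 SE, edgeR adjusted p = 0.338), with overlapping groups. SETDB1 measured 31.3, 33.3 and 29.1 CPM and 34.7, 33.3 and 33.2 CPM (log2 fold change 0.11 ± 0.098 SE, edgeR adjusted p = 0.538).

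ATF7IP, the partner that stabilizes SETDB1, measured 64.9, 70.8 and 58.7 CPM at 24 h without Arg and 79.9, 72.9 and 78.7 CPM with it (log2 fold change 0.25 ± 0.092 SE, edgeR unadjusted p = 0.0138, adjusted p = 0.11). At 48 h it measured 73.2, 74.5 and 71.3 CPM and 78.0, 88.2 and 88.8 CPM (log2 fold change 0.22 ± 0.072 SE, edgeR unadjusted p = 0.0112, adjusted p = 0.237). The groups did not overlap at either time. CHD3, a remodeller of the NuRD complex, measured 207, 252 and 197 CPM and 267, 269 and 287 CPM at 48 h (log2 fold change 0.32 ± 0.086 SE, edgeR unadjusted p = 0.0025, adjusted p = 0.17). DESeq2 called CHD3 with all libraries (adjusted p = 0.0205). MTA1, another NuRD subunit, measured 63.0, 72.3 and 68.5 CPM and 84.8, 73.8 and 84.2 CPM (log2 fold change 0.25 ± 0.082 SE, edgeR unadjusted p = 0.0099, adjusted p = 0.231). Without control library B all 3 rose at 48 h, ATF7IP by 0.23 (adjusted p = 0.0282), CHD3 by 0.44 (adjusted p = 1.34e-05) and MTA1 by 0.30 (adjusted p = 0.0084) on the log2 scale. No other of the 30 passed the test, where 7.76% of all genes rose and 8.17% fell. ZNF274, a KRAB zinc finger protein that brings SETDB1 to chromatin, measured 17.0, 19.1 and 17.2 CPM and 20.6, 23.6 and 20.2 CPM at 24 h (log2 fold change 0.27 ± 0.12 SE, edgeR unadjusted p = 0.0366, adjusted p = 0.186).

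The time comparisons asked how the same genes differed between 48 and 24 h in culture. In the controls 8 of 209 genes rose and 1 fell (3.83% and 0.478%, against 9.9% and 10% of all 14449 genes), and the median log2 fold change was 0.20. In the Arg libraries 15 of 211 rose and 3 fell (7.11% and 1.42%, against 14.3% and 14% of all 14398 genes), with a median of 0.11. Above 0 lay 156 of the 209 in the controls (74.6%, against 51.5% of all genes) and 142 of the 211 with Arg (67.3%, against 50.1%). At an unadjusted p under 0.05, 24 were higher and 3 lower in the controls (11.5% and 1.44%, against 17.1% and 17%), and 27 were higher and 10 lower with Arg (12.8% and 4.74%, against 19.3% and 19.2%). These shares lie below those of all genes in both conditions. Without control B at 48 h, 3 rose and 2 fell in the controls (1.44% and 0.957%, against 7.81% and 8.6%), with a median of 0.10 and 136 of 209 above 0 (65.1%, against 51.1%). Fewer genes also rose in the controls without library A at 24 h (0, with 0 that fell), C at 24 h (1) or A at 48 h (5), and with Arg without library C at 24 h (7) or A at 48 h (4).

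ZNF580 rose with time in both, from 5.74, 5.98 and 6.54 to 9.80, 12.3 and 9.37 CPM in the controls (log2 fold change 0.79 ± 0.17 SE, edgeR adjusted p = 0.01) and from 4.94, 7.10 and 6.28 to 9.95, 10.9 and 9.72 CPM with Arg (log2 fold change 0.74 ± 0.17 SE, edgeR adjusted p = 0.0031). It overlaps ZNF581 on the same strand. ZNF274 rose in both as well (0.53 ± 0.12, adjusted p = 0.0125 in the controls, and 0.40 ± 0.10, adjusted p = 0.0064 with Arg, edgeR). ZNF787 fell in both, from 105, 90.6 and 88.5 to 76.3, 62.1 and 72.2 CPM in the controls (log2 fold change -0.43 ± 0.099 SE, edgeR adjusted p = 0.0123) and from 78.0, 87.5 and 85.5 to 60.2, 70.4 and 68.0 CPM with Arg (log2 fold change -0.34 ± 0.082 SE, edgeR adjusted p = 0.0041).

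In the controls ZNF429, ZNF329 and ZNF254 also rose with time, by 1.51, 0.73 and 0.62 on the log2 scale (adjusted p = 0.0118, 0.022 and 0.0335, edgeR). Without control B only ZNF429 of these 3 passed the test. With Arg, ZNF160, ZNF671 and ZNF836 rose by 0.44, 1.38 and 1.06, and ZNF614 and ZNF473 fell by 0.53 and 0.31 on the log2 scale, with adjusted p of 0.0113, 0.014 and 0.0121 for ZNF671, ZNF836 and ZNF473. ZNF614 had the smallest p of the family with time, at 32.0, 28.0 and 30.6 CPM at 24 h and 19.6, 21.2 and 21.7 CPM at 48 h (adjusted p = 5.31e-04, edgeR). Its control values were 22.3, 24.0 and 25.1 and 16.5, 21.1 and 19.1 CPM (adjusted p = 0.0805). The other genes with the smallest p below 0, ZNF473, ZNF461 and ZNF324B in the controls and ZNF561 and ZNF649 with Arg, did not pass the test, with adjusted p of 0.0639, 0.16, 0.216, 0.0519 and 0.0571. Among the 30 corepressors 6 rose and 4 fell with time in each condition. Of all genes, 9.9% rose and 10% fell in the controls, and 14.3% and 14% with Arg. TRIM28 was among the corepressors that fell, by 0.31 in the controls and 0.38 with Arg on the log2 scale (adjusted p = 0.0179 and 2.99e-04, edgeR).

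The difference between the Arg effects at 48 and 24 h was tested as an interaction over all 12 libraries. It called 0 of the 214 genes (edgeR, adjusted p; DESeq2 also 0), against 0.0132% of all 15148 genes higher and 0% lower. At an unadjusted p under 0.05, 2 were above 0 and 6 below, or 0.935% and 2.8% against 3.06% and 3.8% of all genes. The median interaction was -0.07 with control B and 0.004 without it, when 0 were called, 4 were above 0 and 2 below at an unadjusted p under 0.05 (1.87% and 0.935%, against 4.55% and 4.67%). The smallest p belonged to ZNF429, ZNF569 and ZNF559. ZNF429 measured 0.812, 1.13 and 0.926 CPM in the 24 h controls and 2.81, 1.57 and 2.36 CPM with Arg, then 1.99, 3.21 and 2.95 and 3.18, 2.97 and 2.30 CPM at 48 h (interaction -1.18 ± 0.45 SE on the log2 scale, adjusted p = 0.609, edgeR). The 24 h groups were apart and the 48 h groups overlapped. The interactions of ZNF569 and ZNF559 were -0.78 ± 0.32 and -0.55 ± 0.23 SE (adjusted p = 0.666 and 0.682). That calls were made at 24 h and not at 48 h therefore does not show that the effects differ.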

How the data were processed

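RNA was sequenced from TIGK cells at 48 mM glucose, 3 libraries in each of the 4 combinations of Arg (0 or 500 µM) and time (24 or 48 h). Reads were filtered by the authors (fastp), aligned by STAR against GRCh38/hg38 and assigned to genes by featureCounts. They deposited raw counts, with gene type, coordinates and exonic length. Versions, annotation release and the settings for strand and repeated matches are not given in the sources used here. All count columns were used (0 left out). The libraries held 16542243 to 19040964 counts. CPM values were scaled by TMM over all 12 libraries, and levels of different genes were compared per kb of exonic length.

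Each pair of groups was compared with edgeR 4.0.16 in R 4.3.3 (TMM, filterByExpr, quasi-likelihood test, no block), with Benjamini–Hochberg adjustment over all genes tested and a threshold of 0.05. The interaction was tested over 12 libraries. SE is the absolute log2 fold change divided by the root of F. For a single gene, 3 against 3 libraries allow no exact permutation p below 0.1. DESeq2 1.42.0, other scalings and filters, exonic length and GC corrections, a replicate block and leaving out each library were tried, and the functions were tested on simulated data. GC content (14218 of 14279 genes tested at 24 h had a value), linkers and shared stretches were computed from GENCODE v44 canonical transcripts, and promoters came from RefSeq (GRCh38.p14). Clusters end at gaps over 1 Mb. Protein sequences were not used here.

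The family, lists, corepressors and markers were taken up with earlier results of these data known, although the rule for the genes uses only name, type, place and counts. Named were, for each Arg comparison, the genes called (at most 15 in each direction) and the 8 with the smallest p in each direction, for each time comparison the 5 with the smallest p in each direction, the 3 with the smallest interaction p, the 8 highest and 3 lowest per kb, those at the count threshold, and corepressors with an unadjusted p under 0.05.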

Additional observations from a re-analysis of the deposited data

How the results depend on the processing

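At 24 h the count of chromosome 19 ZNF genes that rose with Arg was 10, 6 with the exonic length correction and replicate block and 16 with the GC correction (chosen after seeing the data), and it ranged from 2 to 13 when 1 library was left out. At 48 h 0 rose, 2 without a filter on low counts and 0 to 38 when 1 library was left out, where 0 to 1 fell and the median ranged from 0.098 to 0.252. With time in the controls, 8 rose: 15 when scaled by library size only, 18 with all 12 libraries in 1 model, 15 with the replicate block, 16 with the GC correction and replicate block, and 0 to 8 when 1 library was left out. There 1 fell: 3 with all 12 libraries in 1 model, with the replicate block, with the length correction and block and with the GC correction and block, 2 with the length correction alone, and 0 to 2 when 1 library was left out. The median there ranged from 0.103 to 0.249. With time under Arg, 15 rose, 9 with DESeq2 and 4 to 12 when 1 library was left out, and 3 fell, 5 with either length correction or the GC correction alone. The cause of these moves was not tested, beyond fewer samples where a library was left out. Of the 10 genes called at 24 h, 8 were also called with DESeq2, 7 with the replicate block and 9 with the length correction. No count of calls or gene named by the rule reversed its direction under any alternative run, but the median interaction over the 214 genes went from -0.07 to 0.004 without control library B at 48 h. No clear pairing by replicate letter was seen, although these values cannot exclude it. Deviations of same-letter libraries correlated at -0.056 to 0.154, and in 7 of 24 cases a library correlated best with its own letter. Between 24 and 48 h in the controls the correlations were 0.058, 0.154 and 0.044. The replicate block called 7 genes at 24 h and 0 at 48 h. With time it called 18 against 9 in the controls and 16 against 18 with Arg. Depth limits the rarer genes most: 128 of the 214 averaged over 100 counts per library.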

Other observations

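Rows with ZNF names on chromosome 19 that were not protein-coding, pseudogenes and antisense or long noncoding RNAs, were measured apart from the 214 genes. Of 16 such rows with enough counts, 15 were tested at 24 h. Their median log2 fold change was 0.50, against 0.23 for the protein-coding ZNF genes of the chromosome. Of the 15, 12 lay above 0, where 50.5% of all genes did. With Arg 2 rose (edgeR, adjusted p), where 2.79% of all genes rose. The 2 were ZNF788P (log2 fold change 0.69 ± 0.19 SE, adjusted p = 0.0335) and ZNF790-AS1 (1.29 ± 0.34 SE, adjusted p = 0.0311), the antisense partner of ZNF790. Where their exons overlap, which was not tested, its reads and those of ZNF790 cannot be told apart without strand. At 48 h 9 of 16 lay above 0 and 0 rose, where 50.3% of all genes lay above 0 and 0% rose. Without control library B 1 rose, ZNF702P (0.81 ± 0.17 SE, adjusted p = 0.0019, edgeR), where 7.76% of all genes rose. The 48 h medians of these rows were 0.07 with B and 0.17 without it, against 0.16 and 0.25 for the protein-coding ZNF genes. These differences were not tested.

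Among ZNF genes of other chromosomes, 7 rose with Arg at 24 h. ZNF750, on chromosome 17, a regulator of keratinocyte differentiation, had the largest change of these 7 (log2 fold change 1.38 ± 0.40 SE, adjusted p = 0.0469) and measured 0.45 ± 0.49 SE at 48 h (adjusted p = 0.723, edgeR), or 1.66 ± 0.25 without control library B (adjusted p = 7.17e-05). ZNF26 and ZNF268, both on chromosome 12, had log2 fold changes of 0.56 and 0.61 at 24 h, and ZNF286B, ZNF367, ZNF510 and ZNF75A lay between 0.39 and 0.81.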
